A study of Mus musculus with 2 samples.

Results

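The proteasome is the cell's main machine for degrading proteins that have been tagged with ubiquitin, and its subunits and regulators are encoded by the Psma, Psmb, Psmc, Psmd and Psme gene families. Of the 31053 genes in the count matrices, 43 symbols of these families were taken, and 42 had at least 20 unique molecular identifiers (UMIs, 1 for each captured RNA molecule) in all cells. The symbol left out for low counts was Psmb11, with 17 UMIs, and the lowest of those kept was Psma8, with 322. Of the 42 members, 3 were treated as interferon-inducible (Psmb10, Psme1 and Psme2) and 36 as constitutive. The other 3 are Psme2b, a symbol nearly identical to Psme2, Psmc3ip, which is no proteasome subunit, and Psma8, a testis form of an alpha subunit.

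The cells came from intracranial tumors of GL261, a mouse glioma line, of which 100000 cells were injected into male C57BL/6 mice aged 8 to 12 weeks. One group was wild type (WT), and the other carried 1 CD169-DTR allele, which expresses the diphtheria toxin (DT) receptor under the control of Siglec1, the gene for the macrophage lectin CD169. Both groups, WT included, received 40 ng/g DT on days -1 and 4 of tumor injection, and CD45.2+ propidium iodide-negative cells of 3 pooled mice per group were sorted on day 10. Each group was 1 droplet library, so there is no replicate. No test was possible, and the intervals given here, all at 95%, cover counting error only, not the difference between mice.

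A barcode counted as a cell when it had 1000 UMIs or more, of which mitochondrial genes took no more than 17%. This gave 10107 cells from WT with a median of 7776 UMIs and 7604 from CD169-DTR with a median of 8099. The libraries shared 21 barcodes. Classes were named from marker genes of clusters, and they held 4735 WT and 5367 CD169-DTR microglia and 2277 and 734 macrophages. WT macrophages had a median of 7202 UMIs and CD169-DTR macrophages 11779. Siglec1, the gene that drives the receptor, had 38.0 CPM (UMIs per 1000000 UMIs of a class) in WT and 11.9 in CD169-DTR macrophages, and 19.0 against 5.61 CPM in microglia. Endothelial and choroid plexus cells were present in both libraries despite the CD45.2 sort.

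The 20S core particle is a stack of alpha and beta rings, and the beta rings hold the proteolytic sites. The 19S cap, with a base of ATPases and a lid, recognises and unfolds substrates. Interferons, above all IFN-γ, induce alternative catalytic beta subunits, which replace constitutive ones in the immunoproteasome, and the PA28 activator, whose subunits are encoded by Psme1 and Psme2. Psmb10 encodes the inducible subunit that takes the place of that of Psmb7. This form of the proteasome is known for supplying peptides for MHC class I presentation.

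The promoters of the 3 inducible members are shown because these genes are set against the constitutive ones throughout. Each is a RefSeq window of 250 bases before to 50 after the start site on GRCm38.p6. Capitals mark a match to GAAANNGAA, the core of the interferon-stimulated response element, on either strand.
Psmb10, chr8:105938343-105938642, minus strand: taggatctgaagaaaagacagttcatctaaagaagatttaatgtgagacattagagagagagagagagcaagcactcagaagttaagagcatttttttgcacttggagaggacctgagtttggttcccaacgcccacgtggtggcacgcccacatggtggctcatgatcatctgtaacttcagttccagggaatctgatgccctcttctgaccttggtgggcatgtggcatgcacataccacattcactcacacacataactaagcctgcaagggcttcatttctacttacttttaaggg
Psme1, chr14:55578244-55578543, plus strand: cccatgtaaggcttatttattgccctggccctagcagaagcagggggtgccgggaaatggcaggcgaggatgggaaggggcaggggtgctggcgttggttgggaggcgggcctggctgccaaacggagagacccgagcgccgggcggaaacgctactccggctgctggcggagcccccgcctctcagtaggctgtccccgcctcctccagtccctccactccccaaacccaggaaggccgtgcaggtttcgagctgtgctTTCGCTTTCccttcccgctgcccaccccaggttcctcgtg
Psme2, chr14:55591052-55591351, minus strand: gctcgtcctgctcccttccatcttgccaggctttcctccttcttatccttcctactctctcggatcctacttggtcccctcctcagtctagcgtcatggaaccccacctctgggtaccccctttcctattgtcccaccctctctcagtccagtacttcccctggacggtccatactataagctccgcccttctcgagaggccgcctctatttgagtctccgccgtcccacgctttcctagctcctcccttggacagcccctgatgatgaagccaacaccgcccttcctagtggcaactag

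The match in Psme1 lay 11 bases past the start site, on the minus strand, and the windows of Psmb10 and Psme2 held none. A second RefSeq window of Psme2, 55590972 to 55591271, held none either. The window of Psme1 lies inside the gene as GENCODE places it, from 55578123. The position of a match, and its absence, thus depend on the start site taken. RefSeq windows were matched for 35 of the 42 members. GAAANNGAA stood in 8.56% of all 32851 promoters and in 5 of 30 constitutive members. TTCNNNGAA, the gamma-activated site, was in none of the 3 inducible members and in 1 of 30 constitutive ones, against 8.3% of all promoters. The letters TGANNNNGC, the core bound by Nfe2l1, a transcription factor of proteasome genes, were in 17 of 30 constitutive members and in Psme2, against 41.3% of all promoters. CCAAT, bound by NF-Y, was in 12 of 30 constitutive members and in no inducible one, against 37.4%. These matches describe the letters of the windows only. Motifs were searched on both strands, and they can overlap.

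The inducible members were highest in dendritic cells, which present antigen to T cells, and lowest among immune cells in granulocytes. Psme1 (ENSMUSG00000022216, chromosome 14, 55578123 to 55581529) encodes the alpha subunit of PA28. It had 1310 CPM (1278 to 1343) in WT dendritic cells, 829 in plasmacytoid dendritic cells, 660 in NK cells, 642 in T cells and 546 (536 to 557) in macrophages. Its level was 415 CPM in B cells, 409 (403 to 415) in microglia and 299 in granulocytes. The intervals of NK and T cells overlapped, and so did those of B cells and microglia.

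Psme2 (ENSMUSG00000079197, chromosome 14, 55587441 to 55591113), the gene for the beta subunit of PA28, had 1036 CPM (1008 to 1066) in WT dendritic cells, 315 (307 to 323) in macrophages and 258 (253 to 263) in microglia. Its order over the classes was close to that of Psme1. Psmb10 (ENSMUSG00000031897, chromosome 8, 105935735 to 105938444) had 335 CPM (319 to 352) in dendritic cells and 316 (308 to 324) in macrophages, which overlapped. It had 286 CPM in NK cells, 285 in T cells, 253 in plasmacytoid dendritic cells, 173 (169 to 177) in microglia, 169 in B cells and 109 in granulocytes. Psmb10 thus set macrophages apart from microglia more than the PA28 genes did. Psme1 is overlapped by Emc9 and Psmb10 by Gm16156, both on the opposite strand.

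**Figure D1:**
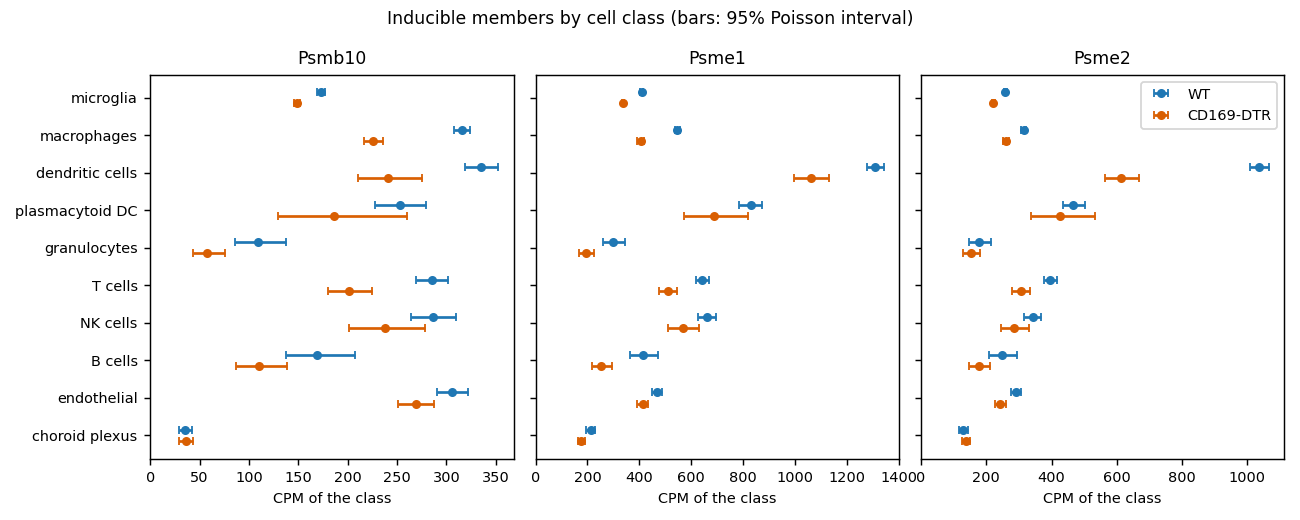
Level of Psmb10, Psme1 and Psme2 in CPM (horizontal axes) in 10 cell classes (vertical axis) of the WT and CD169-DTR libraries, with bars for the 95% Poisson interval of the counts. WT points lie right of CD169-DTR points in all 8 immune classes, and Psme1 and Psme2 are highest in dendritic cells.

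Within dendritic cells, the PA28 genes differed between the clusters. In the cluster led by Ccr7 and Ccl22, genes of migratory dendritic cells, Psme2 had 1914 CPM in WT and Psme1 1367. In the cluster led by Xcr1 and Clec9a, genes of cross-presenting dendritic cells, they had 594 and 1281 CPM. Psme2 was therefore higher in the Ccr7 cluster, while the level of Psme1 was similar in both. The inducible members made up 38.7% of all member UMIs in the WT Ccr7 cluster and 26.5% in the Xcr1 cluster. CD169-DTR had only 14 and 32 cells in these clusters, with inducible shares of 32.9% and 23.2%.

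The share of the inducible members in all member UMIs does not depend on how a library is scaled. In macrophages it was 19.6% (19.3 to 19.8) for WT against 15.8% (15.5 to 16.1) for CD169-DTR, and in microglia 17.3% (17.1 to 17.4) against 15.3% (15.2 to 15.4). The largest microglial cluster, led by P2ry12, had 13.9% in both libraries, and every other microglial cluster had a higher share in WT. In T cells, the shares of WT and CD169-DTR were 20.9% (20.4 to 21.4) and 20.6% (19.7 to 21.5), and these intervals overlapped. Choroid plexus cells, an epithelium, had the lowest shares among named classes with over 100 cells in each library, at 5.79% and 5.40%.

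As a second measure within the family, Psmb10 UMIs were taken as a share of those of Psmb10 and its counterpart Psmb7. This is a share of 3′ counts, so it can be compared between classes but is no ratio of subunits. Macrophages had 73.6% (72.6 to 74.6) in the WT library, against 66.1% (64.5 to 67.7) after depletion of CD169+ cells. This gap was smaller in macrophages of 5000 to 10000 UMIs, where Psmb7 too was higher in WT, at a log2 ratio of 0.21. In microglia the share was 65.1% (64.2 to 66.0) and 62.1% (61.3 to 63.0). Within clusters the gap varied. In the largest microglial cluster, led by P2ry12, the shares were 65.6% (63.1 to 68.0) and 65.8% (63.8 to 67.8). In that led by Il1a and Atf3 they were 58.8% (55.3 to 62.3) and 50.0% (47.0 to 52.9). Of the macrophage clusters, that led by Clec4e had 73.1% and 65.7%, without overlap of intervals. In those led by Ly6c2, Gpnmb and Ear2 the intervals overlapped. Among the immune classes, the largest gap was in granulocytes, at 66.7% (56.9 to 75.4) against 49.1% (39.2 to 59.0) from 108 and 106 UMIs, where the intervals overlapped. NK cells had the highest WT share, 76.2% (73.1 to 79.1), with 74.3% (67.7 to 80.1) in CD169-DTR.

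**Figure D2:**
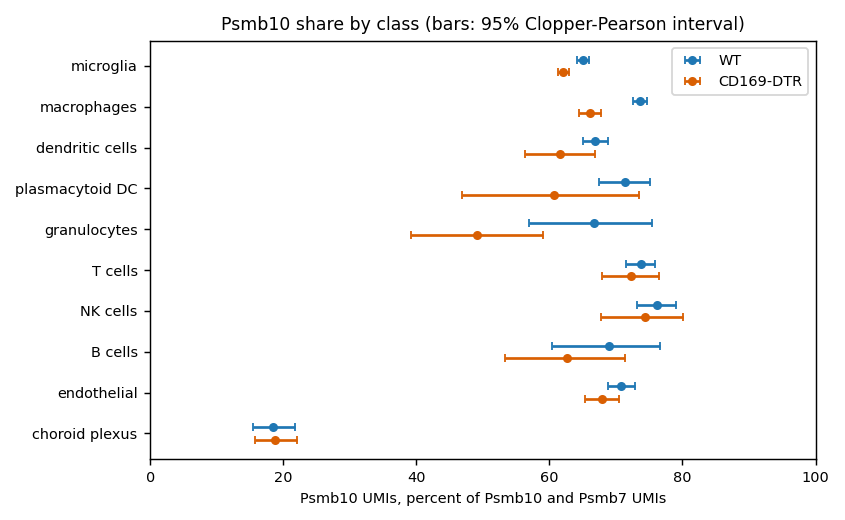
Psmb10 UMIs in percent of Psmb10 and Psmb7 UMIs (horizontal axis) in 10 cell classes (vertical axis) of both libraries, with bars for the 95% Clopper-Pearson interval. As whole classes, macrophages and microglia have intervals that do not overlap between the libraries, and choroid plexus cells lie apart at 18.5% in WT and 18.7% in CD169-DTR.

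The main comparison set WT against CD169-DTR in macrophages, the class that the depletion of CD169+ cells concerns. All 3 inducible members were higher in WT. Psmb10 had 316 CPM in WT and 226 (217 to 236) in CD169-DTR, a log2 ratio of 0.48 (0.41 to 0.55). For Psme1 the levels were 546 and 405 CPM (393 to 418), with a ratio of 0.43 (0.38 to 0.48) on the same scale. For Psme2 they were 315 and 260 CPM (250 to 270), with a ratio of 0.28 (0.21 to 0.34). With equal weight per cell the ratio of Psme2 was 0.13, and with the same weight per cluster that of Psmb10 was 0.30. The intervals of the 3 levels did not overlap between the libraries, and the summed UMIs of the 3 gave a log2 ratio of 0.40 (0.36 to 0.44).

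No inducible or constitutive member reached a log2 ratio of 0.5 in macrophages. Of 9331 genes with at least 100 UMIs in this class, 7.59% had a log2 ratio of 0.5 or more and 6.91% one of -0.5 or less, and the median over all of them was -0.05. The median of the inducible members, 0.43, lay above the values of 90.6% of these genes. The 36 constitutive members had a median of -0.05 (range -0.31 to 0.32), equal to that of all genes, with 14 higher and 22 lower in WT.

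Among the constitutive groups, the alpha ring, which gates the core particle, had a median log2 ratio of 0.16 in macrophages. Its members Psma5 (0.32, interval 0.23 to 0.41), Psma7 (0.30, 0.24 to 0.36) and Psma4 (0.24, 0.16 to 0.32) had the 3 highest ratios of all constitutive members. Psma5 and Psma7 lay above the inducible Psme2, and their intervals overlapped with that of Psme2. The beta ring had a median of 0.00, and the 6 ATPases of the base had one of -0.11, with all 6 lower in WT. The median over all genes given above was negative too, so a lower value in WT was common in this class. All 6 were lower in WT in the cluster led by Ly6c2. In that led by Gpnmb only Psmc2 and Psmc5 were, with Psmc1 at 65.8 against 65.1 CPM and Psmc3 at 121 against 117. The activators Psme4, the gene for PA200, and Psme3, the gene for PA28γ, had log2 ratios of 0.22 (0.03 to 0.42) and 0.16 (-0.06 to 0.38). In cells of 5000 to 10000 UMIs these were -0.18 and -0.38, so neither direction held at matched depth.

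The lowest constitutive ratios in macrophages were those of genes for the 19S cap. Psmd5, a chaperone that helps to assemble the base, had 11.3 CPM in WT and 14.0 in CD169-DTR, a log2 ratio of -0.31 (-0.63 to 0.01). The lid genes Psmd6 (-0.24), Psmd14 (-0.22), which encodes the deubiquitinase of the lid, and Psmd3 (-0.20) followed, together with the base gene Psmd1 (-0.23). The interval of Psmd5 included 0 and those of the other 4 did not. These genes were also lower in the cluster led by Ly6c2 than in that led by Gpnmb, in both libraries. In WT these log2 ratios were -0.70 for Psmd1, -0.60 for Psmd5, -0.45 for Psmd3, -0.42 for Psmd6 and -0.11 (-0.31 to 0.10) for Psmd14. The Ly6c2 cluster made up more of the WT macrophages, and its part was not tested. Within both clusters they were still lower in WT, with Psmd1 at 67.1 against 67.6 CPM in the Gpnmb cluster. Their ratios at matched depth were not computed. The catalytic subunits of the constitutive core had log2 ratios of -0.14 (-0.23 to -0.06) for Psmb5, 0.04 (-0.03 to 0.10) for Psmb6 and -0.03 (-0.14 to 0.07) for Psmb7. In cells of 5000 to 10000 UMIs Psmb7 had 0.21 and Psmb10 0.33. They lay closer there than over all depths, so the Psmb10 share differed less between the libraries. Without integration Psmb6 had 0.33. With the same weight per cluster Psmb5 had 0.00. Of the 4 macrophage clusters, Psmb5 was higher in WT in 3, and its lowest ratio was -0.31, in the cluster led by Ly6c2. Psmb6 was higher in WT in all 4, by 0.03 to 0.33, with 3 intervals above 0.

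**Figure D3:**
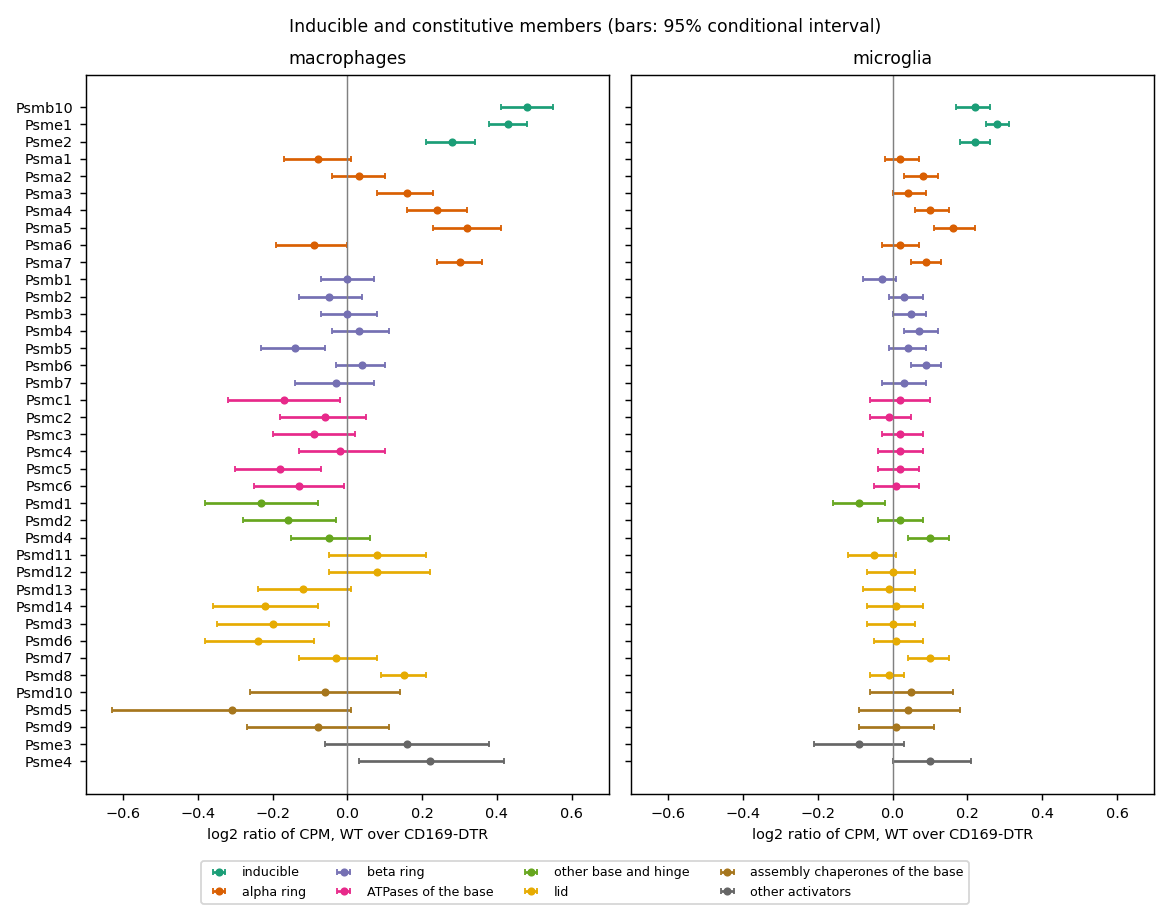
Log2 ratio of CPM of WT over CD169-DTR (horizontal axes) of the 3 inducible and 36 constitutive members, colored by role (vertical axis), in macrophages and microglia, with bars for the 95% conditional interval. Inducible members lie between 0.28 and 0.48 in macrophages and between 0.22 and 0.28 in microglia.

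The macrophage libraries differed in makeup. Of the WT macrophages, 1372 were in the cluster led by Ly6c2 and Chil3, genes of monocytes, and 467 in the cluster led by Gpnmb and Pf4. In CD169-DTR, 242 and 243 cells were in these clusters. The Ly6c2 cluster had more of all 3 inducible members than the Gpnmb cluster in both libraries, with a summed log2 ratio of 0.57 in WT and 0.66 in CD169-DTR. Within clusters, the inducible members were still higher in WT, by a summed log2 ratio of 0.19 in the Ly6c2 cluster, 0.29 in the Gpnmb cluster, and 0.32 each in the clusters led by Ear2 and by Clec4e. With the same weight for every cluster in both libraries, the log2 ratio in macrophages was 0.27 in place of 0.40. In the Ly6c2 cluster, Psme2 had 349 and 336 CPM and a ratio of 0.05, with an interval that included 0.

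**Figure D4:**
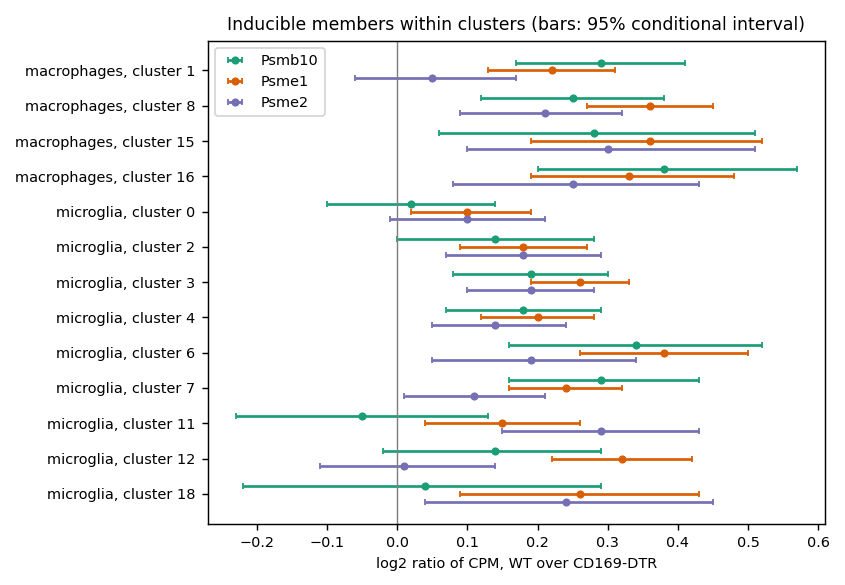
Log2 ratio of CPM of WT over CD169-DTR (horizontal axis) of the inducible members in 4 macrophage and 9 microglia clusters (vertical axis), with bars for the 95% conditional interval. Psmb10 in microglia cluster 11, at -0.05, is the only point below 0.

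Macrophages with and without a Siglec1 UMI were compared within each library. In WT, 526 macrophages with such a UMI had 1191 CPM of the inducible members and 1751 without had 1172, a log2 ratio of 0.02 (-0.02 to 0.07). In CD169-DTR, 93 cells with a UMI had 974 CPM and 641 without had 875, a log2 ratio of 0.15 (0.07 to 0.23). The constitutive members had a ratio of 0.17 (0.14 to 0.20) in the same CD169-DTR cells, so both lists were higher there. Detection of Siglec1 depends on depth, and in cells of 5000 to 10000 UMIs the inducible ratio was 0.04 (-0.03 to 0.12) for WT and -0.05 (-0.36 to 0.24) for CD169-DTR.

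In microglia, the resident macrophages of the brain, the inducible members were also higher in WT, by less. Psme1 had 409 CPM in WT and 337 (332 to 342) in CD169-DTR, a log2 ratio of 0.28 (0.25 to 0.31). Psme2 had 258 against 222 CPM (218 to 226), and Psmb10 173 against 149 CPM (146 to 152), a log2 ratio of 0.22 for both. With the same weight per cluster Psmb10 had 0.14. The summed ratio was 0.25 (0.23 to 0.27), and over the 9 clusters it ranged from 0.08 to 0.31. The largest cluster, led by P2ry12, held 1318 WT and 1899 CD169-DTR cells. There the inducible members had 562 and 531 CPM and the constitutive ones 3423 and 3249 CPM, so both lists were slightly higher in WT. Of 11616 genes, 2.26% had a log2 ratio of 0.5 or more and 2.07% one of -0.5 or less, and no inducible or constitutive member was among them.

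Free RNA moved with the microglial result. Barcodes of 10 to 100 UMIs, which hold free RNA, had 269 CPM of Psmb10 in WT and 154 in CD169-DTR, 581 against 394 of Psme1 and 262 against 167 of Psme2. The amount per droplet was estimated from microglial marker UMIs in lymphocytes. With their mean it came to 1715 UMIs in WT and 857 in CD169-DTR, and subtracting it gave log2 ratios in microglia of 0.01 for Psmb10, 0.15 for Psme1 and 0.17 for Psme2, or 0.13 for their sum. Another estimate, from the lymphocytes without a marker UMI, was added after that effect had been seen. It came to 168 and 103 UMIs and left the ratios within their intervals. The difference of Psmb10 in microglia thus depended on the estimate, and which one is right was not tested. In macrophages, the mean-based subtraction gave 0.50 for Psmb10 and 0.40 for the sum.

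The constitutive members were close to level in microglia, with a median log2 ratio of 0.02 (range -0.09 to 0.16). Psma5 (0.16, interval 0.11 to 0.22) and Psma4 (0.10, 0.06 to 0.15) were again the highest, with Psme4 at 0.10 (0.00 to 0.21). Psme3 (-0.09, -0.21 to 0.03), Psmd1 (-0.09, -0.16 to -0.02) and Psmd11 (-0.05, -0.12 to 0.01), a lid gene, were the lowest. Psmb5, Psmb6 and Psmb7 had log2 ratios of 0.04, 0.09 and 0.03, and in cells of 5000 to 10000 UMIs 0.10, 0.18 and 0.21. Among these named members, the intervals of Psma5, Psma4, Psmd1 and Psmb6 excluded 0.

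In the other immune classes, all 3 inducible members were higher in WT as well. The summed log2 ratio was 0.62 in B cells, 0.54 in granulocytes, 0.48 in dendritic cells, 0.38 in T cells, 0.25 in plasmacytoid dendritic cells and 0.24 in NK cells. Psmb10 in granulocytes had the highest ratio of an inducible member in these classes, 0.92 (0.39 to 1.46), from 72 and 52 UMIs. Psme2 in dendritic cells had 1036 and 614 CPM and a log2 ratio of 0.76 (0.63 to 0.89), where the Ccr7 cluster held 146 of 333 WT and 14 of 46 CD169-DTR cells. In plasmacytoid dendritic cells, with 14 CD169-DTR cells, the intervals of Psmb10 and Psme2 included 0, and that of Psme1 began at 0.00. The interval of Psme2 in granulocytes also included 0.

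T cells had the highest constitutive median of WT over CD169-DTR among the 8 immune classes. The median log2 ratio was 0.36, with 35 of 36 higher, and the summed CPM was 4967 in WT and 3904 in CD169-DTR. Psmb5 had levels of 170 and 111 CPM and a log2 ratio of 0.62 (0.38 to 0.86). The inducible median there was 0.37, the same size as the constitutive one. A list of cycling genes had 499 CPM in WT and 217 in CD169-DTR T cells, and its part in the result was not tested. Over the members with 100 UMIs in the class, the constitutive median was 0.21 in B cells (14 of 16 higher), 0.11 in dendritic cells (27 of 35), 0.11 in plasmacytoid dendritic cells (21 of 29), 0.04 in NK cells (19 of 32) and -0.10 in granulocytes (4 of 13). For these classes and T cells, no value over all genes is given here beside the counts. The counts alone do not tell a change of the members from a shift of most genes in CPM. Over the 8 immune classes, 7 members were higher in WT in every one: the 3 inducible ones, Psme2b, and the alpha ring genes Psma3, Psma4 and Psma7. That count takes the sign of the CPM only, also in classes with few cells. The share of all genes higher in every class was not computed, so it cannot be set against a background.

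Macrophages were next set against microglia within WT. Psmb10 had 316 CPM in macrophages and 173 in microglia, a log2 ratio of 0.87 (0.82 to 0.92), Psme1 had one of 0.42 (0.38 to 0.45) and Psme2 one of 0.29 (0.24 to 0.33). Their sum gave 0.49 (0.46 to 0.51). In CD169-DTR the values were 0.60, 0.27 and 0.23, with 0.33 (0.30 to 0.37) for the sum. The median over all 11166 genes was -0.36 in WT, so CPM places most genes lower in macrophages, and scaling to that median raises every value here. Of these genes, 18.2% had a log2 ratio of 0.5 or more and 43.6% one of -0.5 or less, against 6 and 3 of 41 members.

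The constitutive members were split by role in this comparison. Their median was 0.12 (range -0.80 to 1.01), with medians of 0.48 for the alpha ring, 0.34 for the beta ring, -0.11 for the ATPases and -0.06 for the lid. The lid gene Psmd8 had 325 CPM in macrophages and 162 in microglia, a log2 ratio of 1.01 (0.96 to 1.06), and Psma7 had 391 against 196 CPM, one of 1.00 (0.95 to 1.04). Psma2 (0.58), Psma4 (0.52) and Psmb1 (0.52), all genes of the core particle, were next. The lowest were Psmd5 (-0.80), the lid genes Psmd6 (-0.52), Psmd3 (-0.45) and Psmd12 (-0.36), and Psmd1 (-0.42). Core genes were thus mostly higher in macrophages on the CPM scale, and cap genes went both ways. The lid genes Psmd11, Psmd13 and Psmd14 were higher in macrophages, as was Psmd8. The medians of the ATPases and the lid lay above that of all genes given above, so lower CPM was not particular to the cap. Psmb6 and Psmb7 had ratios of 0.38 and 0.29, which were 0.09 and 0.19 without integration and 0.63 and 0.43 in cells of 5000 to 10000 UMIs. Psmb5 had 0.09 (0.02 to 0.15), but -0.07 when each cell weighed the same and -0.08 without integration.

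Between the microglial clusters, the inducible members differed more than between the libraries. The cluster led by Cxcl13, Ifnb1 and Cxcl10 was set against the largest cluster, led by P2ry12. In WT, Psme2 had 389 CPM in the first and 162 in the second, for a log2 ratio of 1.27 (1.16 to 1.37), Psmb10 289 against 132 CPM, one of 1.13 (1.01 to 1.25), and Psme1 564 against 268 CPM, one of 1.07 (0.99 to 1.16). In CD169-DTR the ratios were 1.23, 0.97 and 0.97. The constitutive median was 0.23 in WT and 0.26 in CD169-DTR, but the members differed. Psmb6 had 0.92 (0.81 to 1.04) in WT, which overlapped with Psme1, and 0.87 in CD169-DTR. Psmd5 had -0.65 and -0.36. No value over all genes is given here beside this comparison. These clusters were formed without any member among the genes used, though their genes are correlated with the members.

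A list of 12 interferon-response genes such as Ifit1 and Isg15 was set beside the inducible members over the clusters. Over 20 WT clusters the inducible level had a Spearman rho of 0.46 with this list and 0.54 with a list of 12 genes leaning to IFN-γ, and over 17 CD169-DTR clusters the values were 0.32 and 0.57. With the level of the constitutive members, the rho was 0.78 in WT and 0.57 in CD169-DTR. The inducible level thus followed the constitutive one at least as closely as either list. The clusters share libraries and free RNA, so these are descriptions. Granulocytes had the highest interferon-response list in WT, 20390 CPM, with only 587 CPM of the inducible members. Dendritic cells of the Ccr7 cluster had 7273 CPM of the list and 3676 of the inducible members.

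**Figure D5:**
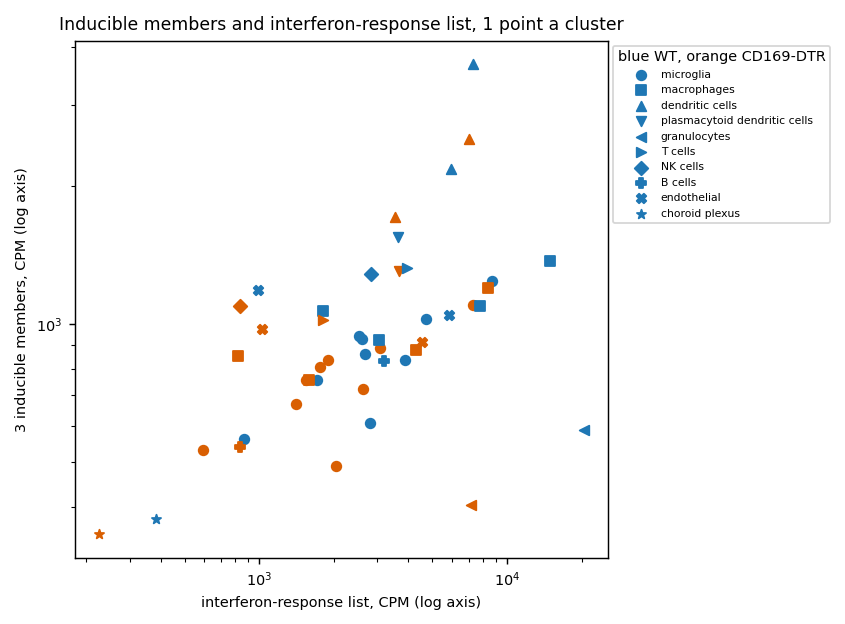
Summed CPM of the 3 inducible members (vertical log axis) against that of 12 interferon-response genes (horizontal log axis), 1 point a named cluster and library, with the class given by the symbol. Dendritic cells have the highest inducible levels, and WT granulocytes lie farthest right, at 20390 CPM of the list and 587 CPM of the inducible members.

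Other genes of the pathway were taken from fixed lists. Of 7 genes for MHC class I peptide supply, 6 were higher in WT macrophages, with a median log2 ratio of 0.28. The transcriptional activator Nlrc5 had 0.94 (0.73 to 1.15), the transcription factor gene Irf1 0.85 (0.75 to 0.94), and the peptide transporter gene Tap1 0.69 (0.61 to 0.78). The peptidase gene Erap1 was the exception at -0.23 (-0.45 to -0.01). In microglia, 6 of 7 were higher, with a median of 0.19. All 12 interferon-response genes were higher in WT in both classes, with medians of 1.43 in macrophages and 0.66 in microglia.

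Of 12 genes for assembly factors, inhibitors and associated proteins, 4 were higher and the others lower in WT macrophages, with a median of -0.09. Usp14, a deubiquitinase of the cap, had -0.45 (-0.64 to -0.25), and the ubiquitin receptor gene Adrm1 -0.31 (-0.47 to -0.15). Nfe2l1, the transcription factor gene named above, had levels of 35.8 and 32.6 CPM and a ratio of 0.14 (-0.06 to 0.33). Pomp, the gene for the chaperone of core assembly, had 329 against 305 CPM, a ratio of 0.11 (0.04 to 0.17). The inducible members were therefore nearer to the peptide supply list than to the assembly list.

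The members that are no separate subunit were low. In macrophages, Psme2b had 28.4 CPM in WT against 18.5 in CD169-DTR, which is 0.62 (0.37 to 0.87) as a log2 ratio, but it is uncertain, since reads of Psme2 may be counted to it. In cells of 5000 to 10000 UMIs its ratio was -0.24. Psmc3ip had 2.23 against 2.47 CPM and Psma8 0.380 against 1.44, from 7 and 14 UMIs. Of the 42 members, 9 overlap another gene on the same strand and 17 one on the opposite strand, which can move reads between them.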

How the data were processed

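The deposited values are raw UMI counts of every gene in every barcode, not normalized, which the authors produced by Cell Ranger 3.1.0 on mm10, per the file headers and the submitters' processing notes. They sum to 101808996 UMIs for WT and 84065489 for CD169-DTR. Samples were grouped by genotype, 1 library each, so no test was made. Gene positions are from GENCODE M21, promoters from RefSeq. The strand setting of the counting is not given in the sources used here.

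Cells were log-normalised to 10000, integrated on 50 dimensions from 2000 variable features, and clustered on 30 dimensions at resolution 1 (Seurat 5.3.0, R 4.3.3), after the study's methods. A class name needed 3 markers with at least 10 UMIs and 25% of their highest level, thresholds set after the data were seen. A cluster led by Cd209a stayed unnamed. Doublets were not removed. UMIs were summed per class and scaled to CPM, and ratios used members with at least 100 UMIs. Intervals are exact Poisson, exact conditional and Clopper-Pearson (scipy 1.17.1, python 3.11.15). The ratio procedure was tested on simulated data.

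Members, lists and named genes were chosen with earlier results of these data known. Named genes were all inducible members, Psmb5, Psmb6, Psmb7, Psme3, Psme4, copies, and the 5 (macrophages, and macrophages over microglia) or 3 (microglia) highest and lowest constitutive ratios. Others outside this rule were named after their values were seen. Results were recomputed under 14 other settings, and under 4 more chosen after seeing the data, among them the second free RNA estimate and the removal of the highest 8% of doublet scores. 2 symbols of the family and 1 gene of the peptide supply list were set aside and are not reported here.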

Additional observations from a re-analysis of the deposited data

How the results depend on the processing

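No paired analysis was possible because each group has 1 library. The inducible list stayed above 0 in all 3 comparisons under every setting run. The constitutive median changed sign in macrophages, from -0.05 to 0.08 in cells of 5000 to 10000 UMIs, and in microglia, from 0.02 to -0.02 with free RNA subtracted. Settings that drop cells kept the clusters as they were. The inducible ratio in macrophages (0.40) was 0.31 without integration, 0.45 with median-ratio scaling, 0.33 with equal weight per cell, 0.27 with the same weight per cluster and, in settings chosen after seeing the data, 0.44 with the Cd209a cluster and 0.32 without the Gpnmb cluster. In microglia (0.25) it was 0.13 with free RNA subtracted, 0.29 with median-ratio scaling, 0.19 with the same weight per cluster, 0.21 in cells without a Siglec1 UMI and 0.22 as a median. Free RNA subtraction was first run with the lymphocyte mean, and the estimate from lymphocytes at 0 was chosen after its effect was seen. Macrophages over microglia (0.49) gave 0.61 without integration, 0.62 with free RNA subtracted, 0.84 with median-ratio scaling, 0.52 with equal weight per cell, 0.37 with the same weight per cluster, 0.75 in cells of 5000 to 10000 UMIs, 0.54 without a Siglec1 UMI, 0.42 as a median and, chosen after seeing the data, 0.52 without the highest 8% of doublet scores, 0.58 with the Cd209a cluster and 0.60 without the Gpnmb cluster. The constitutive median of macrophages over microglia moved to 0.47 with median-ratio scaling and 0.27 as a sum. Psmb5 macrophages over microglia reversed to -0.08 without integration, -0.07 with equal weight per cell and -0.02 without the Gpnmb cluster. In macrophages of 5000 to 10000 UMIs Psme2b reversed to -0.24, Psme4 to -0.18 and Psme3 to -0.38, and Psme2b macrophages over microglia reached 0.09 with median-ratio scaling. Scrublet's own cut marked 2.96% of WT and 0.0132% of CD169-DTR cells, so it failed in the second library, and the 8% rule was set after that was seen. The alternative with border-associated cells gave no value, since no cluster took that name. Causes were not tested. With 1 library a group, depth limits counting error only.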
